A study of Mus musculus with 14 samples.

Results

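The cytosolic ribosomal protein genes were followed through mRNA sequencing and AGO2 PAR-CLIP of mouse bone marrow derived macrophages. They were taken by symbol: every gene whose symbol starts with Rpl or Rps followed by a digit, with Rplp0, Rplp1, Rplp2 and Rpsa, and without symbols marked as pseudogenes (-ps) or the Rps6k kinases. This gave 86 members among the 21444 genes of the count tables. The 8 mRNA libraries fall into 4 labelled wild type (WT 1 to 4) and 4 labelled knockout (KO 1 to 4), and 1 AGO2 PAR-CLIP library was used per genotype. All cells came from C57BL/6 mice with floxed ELAVL1 alleles (ELAVL1f/f). The cells labelled knockout also carried LysM-Cre, a recombinase expressed from the Lyz2 locus in myeloid cells, so that loss of ELAVL1 and presence of the Cre insertion cannot be told apart. Marrow cells were grown with 20% medium conditioned by L929 cells, a source of the macrophage growth factor CSF1, for 6 days by the sample labels and 7 days by the series' own text.

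Ribosomal proteins are the protein parts of the cytosolic ribosome. The Rpl proteins build the large subunit, which joins amino acids, and the Rps proteins build the small subunit, which reads the mRNA. Their mRNAs are among the most abundant of growing cells and carry a tract of pyrimidines at the very 5′ end (5′ TOP), through which mTOR and LARP1 set their translation. ELAVL1 (HuR) is an RNA-binding protein that prefers U-rich and AU-rich stretches of 3′ UTRs and introns. AGO2 is the protein that carries miRNAs to their targets. In PAR-CLIP, RNA labelled with a photoactivatable nucleoside is crosslinked to the protein, and crosslinked sites show T-to-C conversions in the reads.

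By name, RefSeq lists 89 protein-coding genes under the rule, and 82 of them had a row in the count tables. Rpl10l, Rpl24, Rpl32l, Rpl41, Rps13, Rps23rg1 and Rps27 were not analysed here for mRNA. The other 4 members, Rps12l1, Rps3a2, Rps3a3 and Rps4l, are not protein-coding genes under these symbols in RefSeq. The rule also takes like-named genes that are not ribosome components, such as Rps19bp1, which encodes a regulator of SIRT1. Total counts ran from 8160789 to 25030262 per library. The 10 macrophage markers summed to between 18805 and 24993 CPM (counts scaled to the library's total) in the 8 libraries, and none of these markers was at 0. Counts of Elavl1, the targeted gene, did not fall with the KO label, at 63.5 ± 2.0 CPM in WT and 69.5 ± 6.13 in KO (SD, n = 4 each). KO below therefore means the library labelled knockout, and every direction rests on these labels.

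The transcription start of several members carries a pyrimidine tract. RefSeq's promoter table (GRCm38.p6) held 74 start windows for 62 members. A start at C followed by at least 4 further C or T bases was found in 13 of them (17.6%), against 2.51% of 32851 windows of all genes and 0 of 75 windows of mitochondrial ribosomal proteins. Allowing such a tract anywhere from 10 bases before to 15 after the start, on the gene's strand, gave 54.1% of member windows, 41.3% of mitochondrial ribosomal protein windows and 30.7% of all windows. The 4 longest tracts and that of Rps6 are shown as examples of the tract. Each line gives 15 bases before and 15 from the start, with the tract in capitals.
Rpl15: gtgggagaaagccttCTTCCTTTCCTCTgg
Rpl35: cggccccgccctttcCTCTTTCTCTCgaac
Rps10: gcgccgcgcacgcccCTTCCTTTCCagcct
Rps18: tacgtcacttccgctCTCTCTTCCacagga
Rps6: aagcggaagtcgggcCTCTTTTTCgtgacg
The windows lie at chr14:18270972-18271001 (minus strand) for Rpl15, chr2:39005117-39005146 (minus) for Rpl35, chr17:27635230-27635259 (minus) for Rps10, chr17:33955651-33955680 (minus) for Rps18 and chr4:86857353-86857382 (minus) for Rps6. A tract is a description of these letters, and use of these starts was not measured in these cells.

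Levels between genes are compared per length, as the RPKM values the authors deposited, which divide reads by gene length and library size. The order depends on the length used, which counts and RPKM imply to be 3946 bases for Rps9 and 567 for Rplp1. In WT, Rps9 had 850.7 ± 215.0 CPM and Rplp1 541.9 ± 320.9 (SD, n = 4 each), but 214.4 and 946.0 RPKM. The proteins of a ribosome are needed in near-equal numbers, and the values of their mRNAs spanned a wide range. The median member had a mean of 43.5 RPKM over the 8 libraries. Of the 86 members, 24 had 100 RPKM or more, 39 had 10 to 100, and 23 had under 10. Rplp1, which with Rplp2 forms the acidic stalk that recruits elongation factors, was the highest at 1001 ± 456 (SD, n = 8). It had 843, 1729, 525 and 687 RPKM in WT 1 to 4 and 1187, 1610.0, 761 and 662 in KO 1 to 4. WT 2 and KO 2 were the 2 highest libraries for Rplp1, and the genotypes overlapped.

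The stalk base Rplp0 reached 541 ± 144 (SD, n = 8) and Rplp2 131 ± 52.9 (SD, n = 8). Among the other large-subunit genes, Rpl8, a core protein near the peptidyl transferase centre, had 802 ± 168 (SD, n = 8), Rpl23 577 ± 100.1 (SD, n = 8), Rpl4, which lines the exit tunnel, 407 ± 50.6 (SD, n = 8) and Rpl32 369 ± 63.8 (SD, n = 8). Of the small-subunit genes, Rps20 had 399 ± 57.7 (SD, n = 8). In the order of levels, neighbours such as Rpl23 and Rplp0 differed by less than the SD over the libraries.

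At the other end stood genes of the same ribosome. Rpl11, which together with Rpl5 can bind MDM2, had 1.85 ± 0.748 (SD, n = 8), Rpl15 1.83 ± 0.841 (SD, n = 8), Rpl38 1.31 ± 0.417 (SD, n = 8), Rpl17 1.18 ± 0.491 (SD, n = 8) and Rpl23a 0.906 ± 0.268 (SD, n = 8). Rpl23a is a large-subunit protein at the tunnel exit. Rps12l1 had 1.04 ± 0.857 (SD, n = 8), and it was at 0 in WT 1. Among these low genes, neighbours in the order again differed by less than the SD.

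The number of pseudogene symbols (-ps) moved with these levels. The gene name table lists 289 -ps symbols of this family. The 30 members without one had a median of 83.3 RPKM, 27 members with 1 to 2 had 62.1, 12 members with 3 to 5 had 49.0, and 17 members with 6 or more had 9.997. Of the 24 members at 100 RPKM or more, 14 had none, while Rps2 alone had 6 or more. Across the 86 members, Spearman's rho between level and number of pseudogene symbols was -0.40, a description over genes that share libraries. Between level and the length implied by counts and RPKM, rho was -0.343 over the 81 members with such a length. How reads with several matching places were counted is not given in the sources used here, so a low value of a member with many copies is uncertain as a level, and the part of the copies in it was not tested. Rpl11, with a low value, is listed with no -ps symbol, and copies under other names, if any, were not counted.

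**Figure D1:**
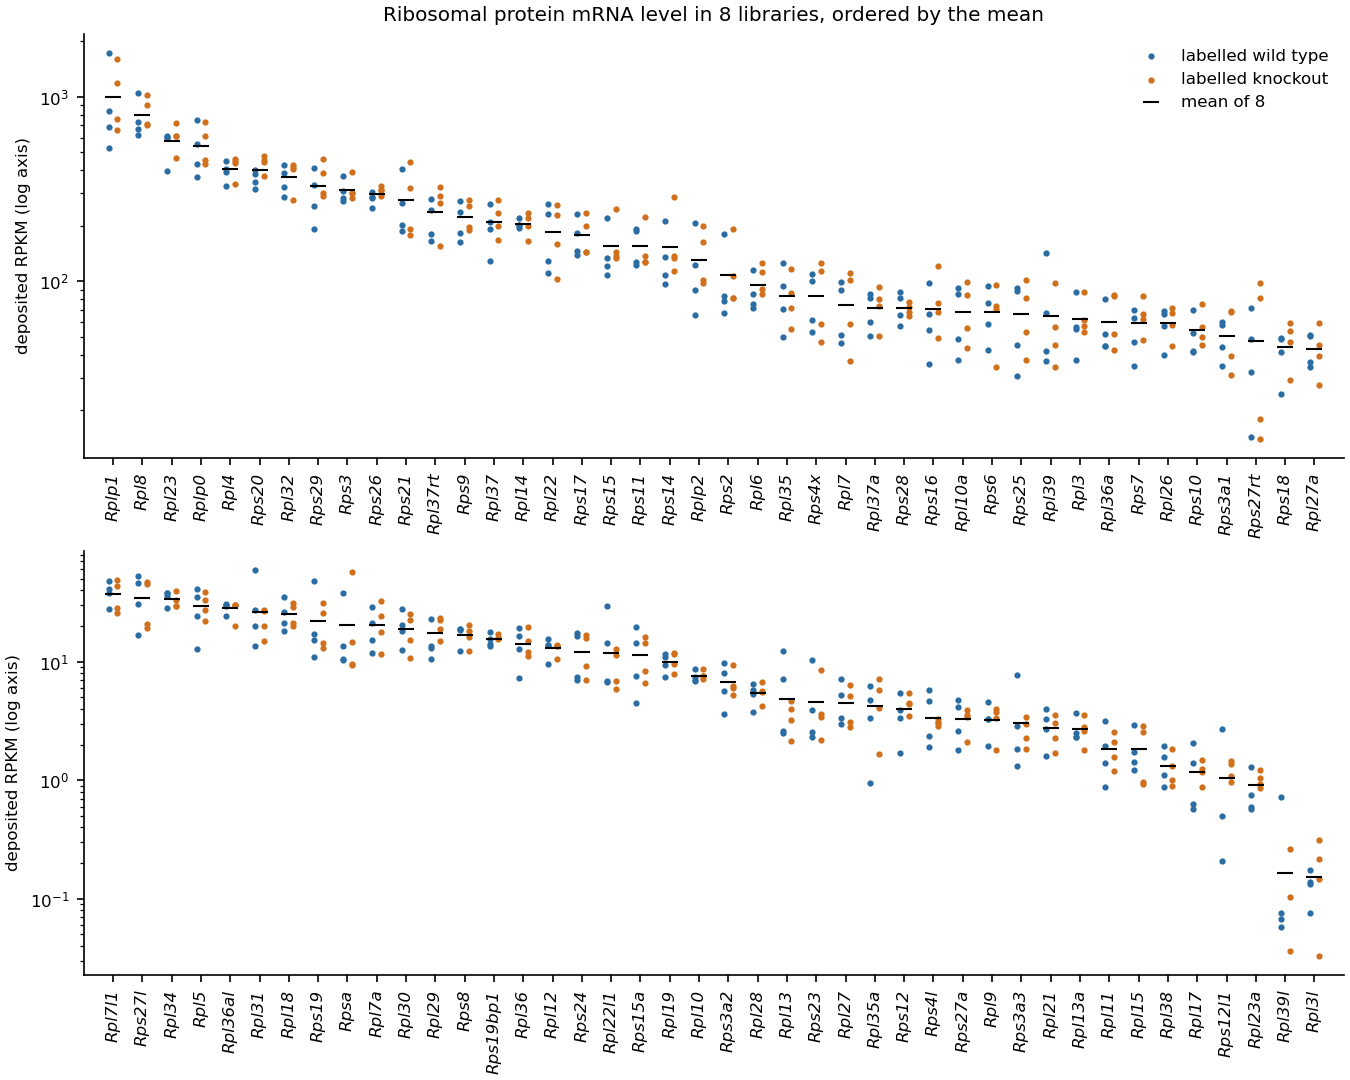
Deposited RPKM (log axis) of 84 of the 86 members, ordered by mean, with 1 point per library in blue (WT) and orange (KO) and a bar at the mean of 8; 2 values of 0 (Rps12l1 in WT 1 and Rpl39l in KO 2) are not drawn. Levels run from 1001 for Rplp1 to 0.154 for Rpl3l, and blue and orange points overlap for each gene with a test.

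Paralogs of core ribosomal proteins and other like-named genes under the rule were also measured. Rpl3l, the striated muscle form of Rpl3, had 0.175, 0.076, 0.134 and 0.138 RPKM in WT 1 to 4 and 0.312, 0.218, 0.146 and 0.033 in KO 1 to 4, and Rpl3 had 62.0 ± 17.3 (SD, n = 8). Rpl39l, known from testis, had 0.166 ± 0.24 (SD, n = 8), and most of this came from WT 3 at 0.727. These 2 genes did not pass the filter on low counts, so 84 members were tested. Rpl22, which also binds viral and cellular RNA, had 186 ± 67.0 (SD, n = 8), and its paralog Rpl22l1 had 11.7 ± 7.75 (SD, n = 8). Rps27l, a p53-responsive relative of Rps27, had 34.6 ± 14.4 (SD, n = 8). Rpl36al had 28.1 ± 3.93 (SD, n = 8) beside 60.3 ± 18.6 (SD, n = 8) for Rpl36a. Their implied lengths were 2887 and 553 bases. In mean CPM the order was the reverse, with 82.65 and 30.53 in WT and 79.62 and 36.06 in KO. Rps27rt, a retrogene copy, had 47.1 ± 32.9 (SD, n = 8), Rps4l 3.37 ± 1.26 (SD, n = 8), the nucleolar Rpl7l1 37.5 ± 9.15 (SD, n = 8) and Rps19bp1 15.7 ± 1.39 (SD, n = 8). Rps27, the gene that Rps27rt is named for, was not analysed here for mRNA. The part of Rps27 reads in the values of Rps27rt was not tested. Rps27a, made as a fusion with ubiquitin, had 3.28 ± 1.04 (SD, n = 8).

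The members together took a small part of the counts, highest in number 2. They held 0.886, 1.22, 0.849 and 0.924% of all counts in WT 1 to 4 and 0.987, 1.28, 0.951 and 0.973% in KO 1 to 4. The KO value was the higher of the pair in 4 of 4 library numbers, and the genotypes overlapped. The means were 0.971 ± 0.172% in WT and 1.05 ± 0.155% in KO (SD, n = 4 each). As a share of summed RPKM the members were 2.28 ± 0.267% in WT and 2.47 ± 0.236% in KO. Symbols marked -ps held a further 0.143 to 0.199% of counts. The 7 protein-coding genes under the rule without a row are not in these shares. Reads with several matching places may also be missing from them, since their treatment is not given.

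The first comparison asked whether ribosomal protein mRNAs differ between macrophages labelled as lacking ELAVL1 and their floxed controls. No member was called. With edgeR's quasi-likelihood test and Benjamini-Hochberg adjustment over 14019 genes, 0 members and 0% of all genes passed an adjusted p of 0.05, and 0 members had an unadjusted p under 0.05 against 0.578% of all genes. DESeq2 and limma on log2(RPKM + 1) also called 0 members. The median log2 fold change, KO against WT, was 0.069 over the 84 members and -0.0017 over all genes tested, and 57 members were above 0 (67.9%, against 49.6% of all genes). Single libraries moved that median, which was 0.005 without WT 1, 0.14 without KO 1 and -0.0076 without KO 2. Of the 84, 73 (86.9%) lay within 0.3 of 0 on the log2 scale, as did 85.5% of all genes, and 81 members changed by under 1.5-fold. The median SE of a member was 0.31, so a change of that size could not be told from the spread between libraries. The labels do not tie the libraries to separate animals, so a p-value here reflects only how far these samples spread.

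The smallest unadjusted p belonged to Rps20, a protein of the small subunit's head. It had 315, 399, 344 and 380.5 RPKM in WT 1 to 4 and 372, 481, 457 and 446 in KO 1 to 4. KO exceeded WT in 4 of 4 numbers, but the genotypes overlapped. Its log2 fold change was 0.29 (SE 0.15), with an unadjusted p of 0.0883 and an edgeR adjusted p of 0.9999.

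Rpl29, a heparin-binding protein of the large subunit, had 13.7, 12.9, 10.6 and 22.8 RPKM in WT 1 to 4 and 18.8, 14.8, 22.4 and 23.5 in KO 1 to 4. WT 4 lay among the KO values. Its log2 fold change was 0.41 (SE 0.26). Rpl6 had a log2 fold change of 0.26 (SE 0.19), Rps7, another MDM2-binding protein, of 0.28 (SE 0.25), Rps26 of 0.16 (SE 0.14) and Rps29 of 0.27 (SE 0.26). All had an edgeR adjusted p of 0.9999. Without WT 3, Rps7 was at 0.12, Rps26 at 0.10, Rps29 at 0.10 and Rpl29 at 0.27. Without WT 4, Rps7 was at 0.43, Rps29 at 0.45, Rpl29 at 0.68 and Rpl6 at 0.42. Rps7 was at 0.16 without KO 4, Rps29 at 0.12 without KO 3, and Rpl6 at 0.16 without KO 3. Within numbers 1 and 2, Rps7 was at 0.02 and Rps29 at 0.006.

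Among the 10 of smallest p, 3 had lower values in KO, and each had its highest value in WT 3. Rpl13 had 2.48, 2.58, 12.2 and 7.19 RPKM in WT 1 to 4 and 2.14, 3.21, 4.68 and 4.00 in KO 1 to 4. WT 3 and WT 4 stood above all KO libraries, and WT 1 and WT 2 did not. Its log2 fold change was -0.79 (SE 0.52), but 0.11 within numbers 1 and 2. Rpl22l1 had 6.69, 6.8, 29.2 and 14.3 RPKM in WT 1 to 4 and 5.88, 6.91, 11.3 and 12.7 in KO 1 to 4, with WT 3 the highest, and a log2 fold change of -0.63 (SE 0.49). Rpl31 had 13.6, 19.9, 59.2 and 27.2 RPKM in WT 1 to 4 and 14.9, 19.9, 27.2 and 26.8 in KO 1 to 4 and a log2 fold change of -0.43 (SE 0.42), which turned to 0.13 without WT 3. Without that library, Rpl13 was at -0.22 and Rpl22l1 at -0.01. The same library was the highest for Rpl39, at 141 RPKM against 67.5 in WT 4 and 97.7 in KO 4.

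Libraries with the same number deviated together, so the change was also taken within each number. Their correlations do not tell numbers 3 and 4 apart, since WT 4 correlated with KO 3 at 0.832 and with KO 4 at 0.801, and WT 3 with KO 4 at 0.764 and with KO 3 at 0.745. The median member was 0.12 higher in KO on the log2 scale in number 1, 0.10 in number 2 and 0.16 in number 3, and -0.01 in number 4. The medians over all genes tested were 0.0, 0.011, 0.0037 and 0.0005. KO was higher for 56, 58, 58 and 42 of the 84 members in numbers 1 to 4. KO was higher in all 4 numbers for 13 members (15.5%, against 9.52% of all genes), which include Rps20, Rps16, Rps2, Rps14, Rps15, Rpl4, Rpl23, Rpl29 and Rpl35a. KO was lower in all 4 for 0 members (0%, against 8.26% of all genes). In 0 members did all KO libraries exceed all WT libraries, against 0.35% of all genes.

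With the number as a block, edgeR again called 0 members, while 0.0357% of all genes passed. The median SE of a member fell from 0.31 to 0.11, and 13 members had an unadjusted p under 0.05 (15.5%, against 9.42% of all genes), 11 higher and 2 lower in KO. The smallest blocked p was that of Rps16, another protein of that head, named here after its values were seen. It had 35.5, 97.7, 54.1 and 66.1 RPKM in WT 1 to 4 and 48.9, 120.4, 68.1 and 75.8 in KO 1 to 4. KO exceeded WT in 4 of 4 numbers. Its blocked log2 fold change was 0.32 (SE 0.08) with an edgeR adjusted p of 0.214. Rps20 followed at 0.29 (SE 0.07) with an adjusted p of 0.218. DESeq2 with the same block called 0.585% of all genes and 0 members.

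**Figure D2:**
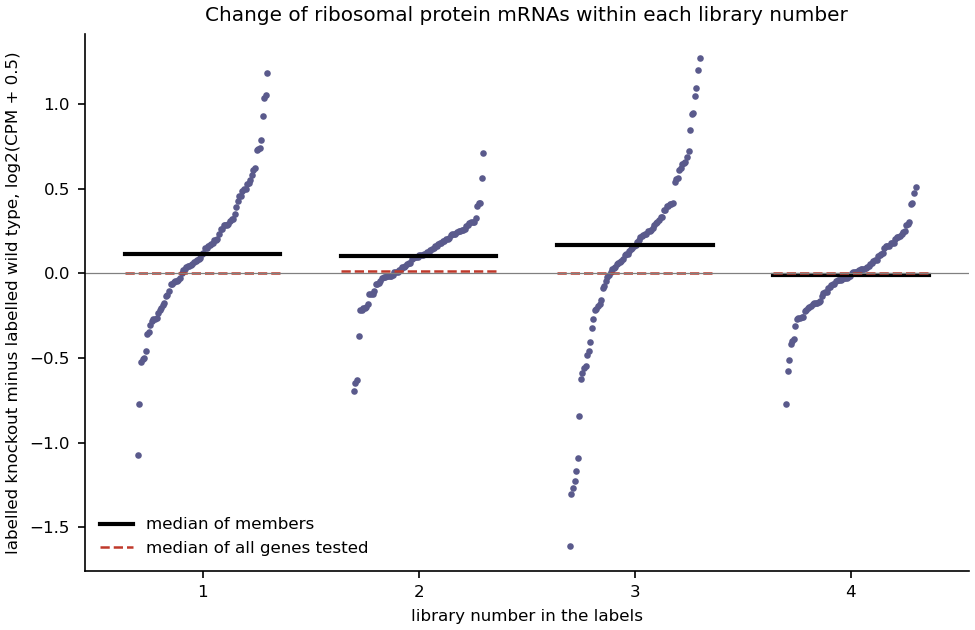
KO minus WT, in log2(CPM + 0.5), of the 84 tested members within each library number, with members sorted within a number, black bars at the members' median and dashed red bars at the median of all genes tested. The members' medians are 0.12, 0.10, 0.16 and -0.01, and single members spread on both sides of 0 in each number.

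Most members, like most genes tested, differed between the library numbers. With genotype in the model, edgeR's F-test of the number called 65 of 84 members (77.4%) at an adjusted p under 0.05, and 65.4% of all genes. The labels do not say what the number stands for beyond the replicate. Ordered after the values were seen, 27 of the called members had the means of numbers 3 and 4 both above those of numbers 1 and 2 (32.1% of those tested, against 27.1% of all genes), and 20 had both below (23.8%, against 26.6%). Number 2 was the highest for 29 called members (34.5%, against 19.8%). Members of the same subunit took opposite orders.

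In the group lower in numbers 3 and 4, Rps21, a small-subunit protein, had 265, 406, 188 and 202 RPKM in WT 1 to 4 and 322, 445, 191 and 178 in KO 1 to 4 (adjusted p = 3.2e-05, edgeR). Numbers 1 and 2 stood above numbers 3 and 4 in both genotypes. The stalk genes Rplp0, Rplp1 and Rplp2 shared this order, with log2 differences between the mean of numbers 3 and 4 and that of 1 and 2 of -0.69, -1.03 and -1.003. Rps23 differed in that number 1 alone was high, with 10.3, 3.92, 2.33 and 2.55 RPKM in WT 1 to 4 and 8.55, 3.58, 3.38 and 2.18 in KO 1 to 4.

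In number 2, Rpsa, the small-subunit protein also known as the laminin receptor, had 10.2, 38.2, 13.5 and 10.5 RPKM in WT 1 to 4 and 14.6, 57.3, 9.46 and 9.39 in KO 1 to 4. WT 2 and KO 2 were far above the other 6 libraries (adjusted p = 1.9e-05, edgeR). Rps2 had 83.3, 181, 67.4 and 78.2 RPKM in WT 1 to 4 and 106, 191, 80.8 and 81.5 in KO 1 to 4 (adjusted p = 9.2e-06, edgeR), again with WT 2 and KO 2 on top. Rps16, given above, followed the same order, with WT 1 the lowest (adjusted p = 1.8e-05, edgeR).

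The opposite order was seen in Rpl35a, a large-subunit gene mutated in some Diamond-Blackfan anaemia. It had 0.946, 3.35, 4.75 and 6.26 RPKM in WT 1 to 4 and 1.65, 4.09, 5.81 and 7.12 in KO 1 to 4. Number 1 was the lowest and number 4 the highest in both genotypes (adjusted p = 2.7e-05, edgeR). Rps27rt had 32.1, 14.3, 48.7 and 71.9 RPKM in WT 1 to 4 and 13.9, 17.9, 81.0 and 97.4 in KO 1 to 4, and Rps15a had 4.5, 7.57, 19.8 and 14.2 RPKM in WT 1 to 4 and 6.58, 8.26, 14.2 and 16.2 in KO 1 to 4. Rpl22 had 111, 129, 261 and 232 RPKM in WT 1 to 4 and 103, 160.1, 228 and 259.8 in KO 1 to 4, so that numbers 3 and 4 exceeded numbers 1 and 2 without overlap, while its paralog Rpl22l1 also had its 4 lowest values in numbers 1 and 2. Rps6, the substrate of the S6 kinases, had 42.4, 58.5, 94.1 and 76.2 RPKM in WT 1 to 4 and 34.1, 73.1, 70.7 and 95.2 in KO 1 to 4, and Rps27a had 1.79, 2.62, 4.17 and 4.78 RPKM in WT 1 to 4 and 2.1, 3.41, 3.88 and 3.53 in KO 1 to 4. All of these passed the test of number, as did Rpl13a and Rpl7l1, whereas Rpl36al, Rps4l and Rps19bp1 did not.

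Other measures moved with the number. Total counts were 8160789 to 19547964 in numbers 1 and 2 and 22920606 to 25030262 in numbers 3 and 4. The 6 stromal markers summed to 1.53 to 3.32 CPM in numbers 1 and 2 and 5.88 to 50.6 in numbers 3 and 4, and the 4 T cell markers to 30.8 to 38.9 and 83.3 to 107.7. The 4 B cell markers summed to 42.3 to 54.0 CPM in numbers 1 and 2 and 27.0 to 32.0 in numbers 3 and 4, the 3 of 4 measured mast cell markers to 0.76 to 1.87 and 5.23 to 7.61, and the 4 endothelial markers to 19.8 to 34.3 and 39.5 to 63.2. The 7 neutrophil markers summed to 9.2 to 54.2 and 18.9 to 34.5 CPM. None of these measured markers was at 0 in all libraries. The part of depth and of these markers in the members' differences was not tested. Between genotypes the sums overlapped for every one of these lists. Within numbers, the endothelial sum was higher in KO in 4 of 4 (29.5 and 34.3, 19.8 and 27.2, 39.5 and 63.2, and 40.1 and 57.9 CPM in WT and KO of numbers 1 to 4). The stromal sum was higher in KO in numbers 3 and 4 (5.88 and 43.7, and 27.8 and 50.6) and lower in numbers 1 and 2.

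**Figure D3:**
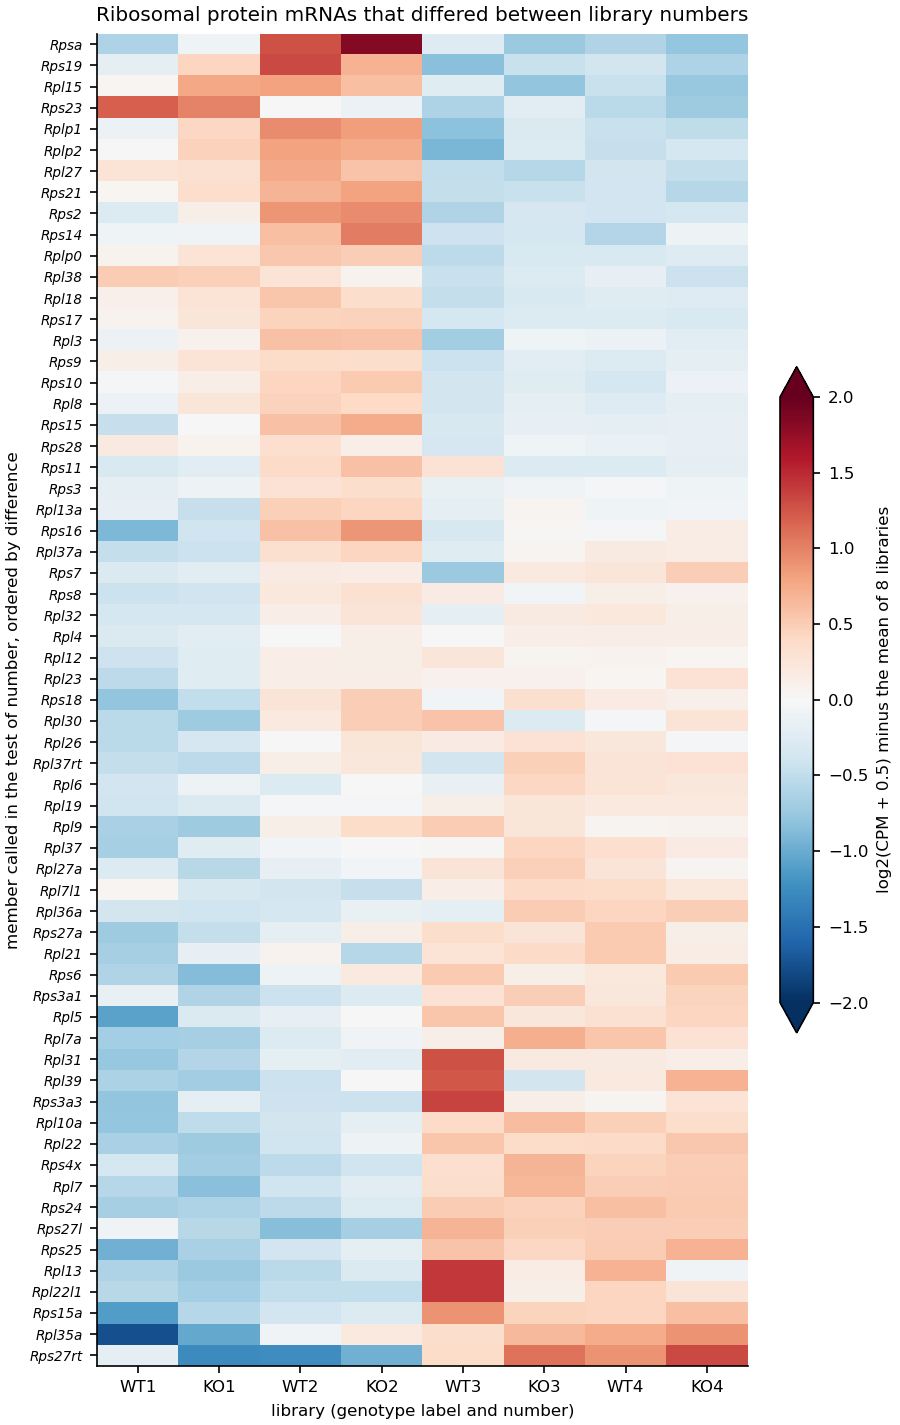
Heat map of 63 of the 65 members called in the test of library number: colour is log2(CPM + 0.5) minus the gene's mean over 8 libraries, rows run from the lowest to the highest difference of numbers 3 and 4 from 1 and 2, and columns pair WT and KO of each number. Columns of the same number look alike, Rpsa and Rps2 are highest in number 2, and Rpl13, Rpl22l1, Rpl31 and Rpl39 are highest in WT 3.

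Related gene lists gave the wider setting, chosen with earlier results of these data known. The 77 mitochondrial ribosomal proteins, which build the separate ribosome of mitochondria, had a median log2 fold change of 0.01, with 39 above and 38 below 0, and 0 called by edgeR with or without the block. Mrpl36 had the smallest p of that list, at a log2 fold change of 0.26 (SE 0.18, edgeR adjusted p = 0.9999). Of 16 other 5′ TOP genes of translation, such as elongation factors, 12 were above and 4 below 0 with a median of 0.12, and 0 were called. The smallest p there was that of Eef1g, a subunit of elongation factor eEF1, at 0.20 (SE 0.15). Of 26 ribosome biogenesis genes 10 were above and 16 below 0 (median -0.03), and of 15 tested regulators of ribosomal protein synthesis 8 were above and 7 below (median 0.01), with 0 called in each list. Their smallest p belonged to Nop10, a snoRNP protein, at 0.14 (SE 0.16) and to Eif4ebp2, a repressor of cap-dependent translation, at 0.36 (SE 0.25). Fau, which encodes a small-subunit protein fused to a ubiquitin-like part and falls outside the symbol rule, stood at 0.03 (SE 0.15). By the same rule of small p, the lists also give Mrpl40 (-0.22), Mrps22 (-0.39), Hnrnpa1 (-0.27), Nap1l1 (-0.37), Ncl (-0.15), Bop1 (0.16), Larp1 (0.13) and Zfp622 (0.15), in log2 fold change, and none was called. The test of number called 43 of 77 mitochondrial genes, 12 of 16 TOP genes, 19 of 26 biogenesis genes and 13 of 15 regulators. It called 65.4% of all genes tested.

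AGO2 groups are clusters of overlapping PAR-CLIP reads, deposited with their read count, conversions, gene name and transcript location. With 1 library per genotype, no test between genotypes was possible, and intervals are exact 95% intervals that cover counting error only, since reads without molecular identifiers are not independent molecules. Groups of ribosomal protein names were few: 33 groups with 732 reads in WT and 27 groups with 618 reads in KO, of 41852 and 41356 groups in genes. Of the 86 members in the count tables, 20 had a group in WT (23.3%, exact binomial interval 14.8 to 33.6%) and 21 in KO (24.4%, 15.8 to 34.9%). Among other genes with at least 1 RPKM, 60.6% and 60.8% had one. In 56 members no group was listed in either genotype.

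At each mRNA level, a smaller share of members than of other genes had a group. In WT, an exonic group was found for 3 of 19 members at 1 to 10 RPKM (15.8%), 5 of 39 at 10 to 100 (12.8%) and 9 of 24 at 100 or more (37.5%, interval 18.8 to 59.4%). Other genes of those levels had 50.3, 64.6 and 65.1%. In KO the members' shares were 9.52, 15.8 and 24%, and those of other genes 48.2, 62.2 and 66.1%. Groups in 3′ UTRs, the usual place of miRNA sites, were found in 8 of 82 members at 1 RPKM or more in WT (9.76%, interval 4.31 to 18.3%) and in 45.3% of other genes. Lengths of 3′ UTRs were not available, so members were not set beside genes of like 3′ UTR length. The part of 3′ UTR length in this difference was not tested. How reads with several matching places were treated is not given for the groups either. The part of pseudogene copies in these shares was not tested.

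Gene length moved with this share. The length implied by counts and RPKM had a median of 1031 bases in members and 3517 bases in other genes at 1 RPKM or more. Among genes under 1000 bases, 5 of 38 members (13.2%, interval 4.41 to 28.1%) and 15.8% of 1116 other genes had an exonic group in WT, and 15.8 and 15.6% in KO. At 1000 to 2000 bases the WT shares were 26.7% of 30 members (interval 12.3 to 45.9%) and 41.8% of other genes, and at 2000 bases or more 30.8% of 13 members (9.09 to 61.4%) and 69.2%. The members' intervals held the value of other genes in the first 2 length classes in WT and in the shortest class in KO. At 100 RPKM or more and under 1000 bases, 4 of 14 members (28.6%, interval 8.39 to 58.1%) and 29.3% of other genes had one in WT. In KO these shares were 21.4% (4.66 to 50.8%) and 33.1%. At that level, WT shares at 1000 to 2000 bases were 42.9% of 7 members and 69.7%, and at 2000 or more 66.7% of 3 and 90.7%. In KO they were 37.5% of 8 and 71.6%, and 0% of 3 and 88.1%. The split by length was chosen after the data were seen. The implied length is the one used for the RPKM values and not a measured mRNA length. It was 3946 bases for Rps9 and 4156 for Rpl18. Members and other genes of 1 class may therefore differ in mRNA length.

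**Figure D4:**
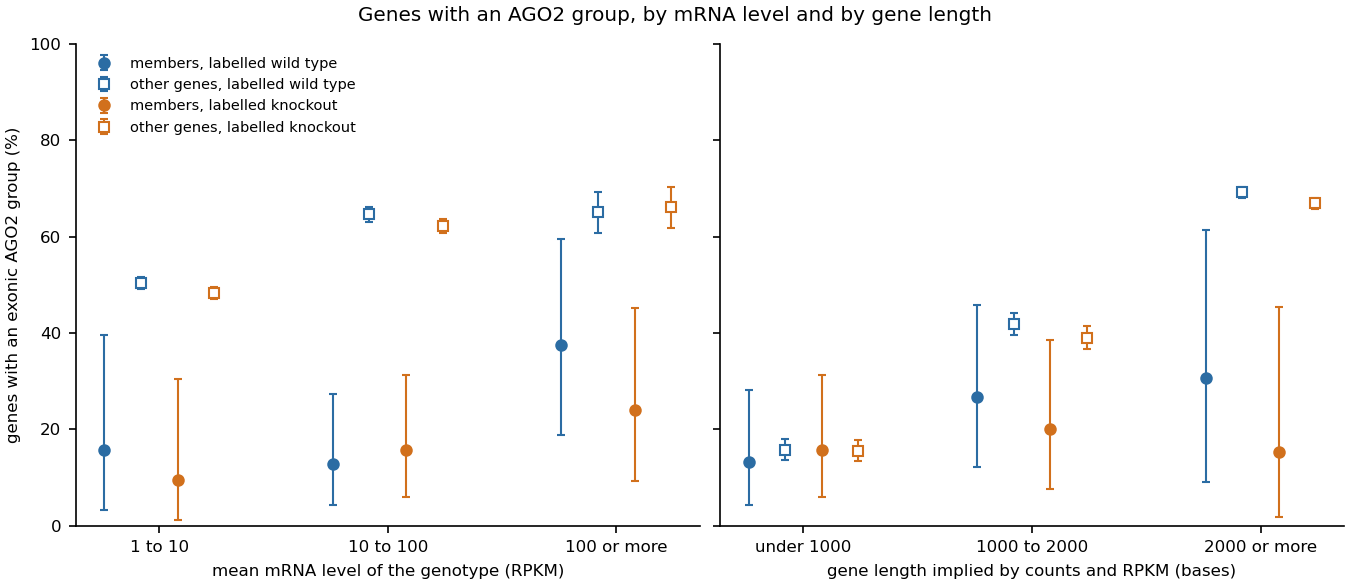
Share of genes with an exonic AGO2 group (%) by mean RPKM (left) and by gene length implied by counts and RPKM (right), for members (filled circles) and other genes (open squares) in WT (blue) and KO (orange), with exact 95% binomial intervals. Members lie below other genes at each level, and beside them for genes under 1000 bases.

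Per mRNA the AGO2 reads were low. Among the genes with a symbol, a smaller denominator than the one used above for all rows, the members made up 2.50% of summed mean RPKM in WT and 2.71% in KO. They held 0.0245% of group reads in named genes in WT (547 reads) and 0.0286% in KO (602 reads). The ratio of these shares was 0.0098 in WT (interval 0.009 to 0.0106) and 0.0105 in KO (0.0097 to 0.0114), where 1 would be a share of AGO2 reads equal to the share of mRNA. With mean CPM, which is not divided by length, as the mRNA level, the ratio was 0.0246 in WT and 0.0266 in KO. The strongest group of any ribosomal protein name held 96 reads in WT and 86 in KO. The part of reads with several matching places in these ratios was not tested.

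By location, the WT groups fell into 13 in 3′ UTRs, 9 in coding sequence, 4 in 5′ UTRs and 7 in introns, and the KO groups into 10, 7, 2 and 8. Coding groups were 27.3% of the WT total (interval 13.3 to 45.5%) and 25.9% of the KO total (11.1 to 46.3%), against 25.7% and 23.4% over all genes. Groups in 3′ UTRs were 39.4% (WT) and 37.0% (KO) of the groups of ribosomal protein names, against 52.8% and 42.1% over all genes. These include groups named Rpl24, 5 in WT (4 in 3′ UTRs) and 1 in KO, whose gene is uncertain, as given below. Without them, 9 of 28 WT groups and 9 of 26 KO groups lay in 3′ UTRs. The other shares of location, conversion, overlap and seed matches also include them. Groups in 5′ UTRs were 12.1% and 7.41%, against 1.43% and 1.86%, and those in introns 21.2% and 29.6%, against 20.1% and 32.6%. At least 1 converted position was found in 12 of 13 WT 3′ UTR groups and 9 of 10 in KO, in 5 of 9 and 3 of 7 coding groups, in 4 of 7 and 3 of 8 intron groups, and in 0 of 4 and 1 of 2 groups of 5′ UTRs. Over all genes, the converted shares in WT and KO were 86.9 and 81.6% in 3′ UTRs, 77.6 and 68.8% in coding sequence, 39.7 and 26.5% in introns and 56.8 and 38.3% in 5′ UTRs. Of the WT groups, 8 of 33 (24.2%) overlapped a KO group by at least 1 base on the same strand, as did 8 of 27 in KO (29.6%), against 37.9% and 38.6% over all genes.

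The 3′ UTR groups of 2 measured members are shown first, as crosslinked sites of single mRNAs. Positions are those of the deposited tables on mm9, and whether their first base is counted from 0 or 1 could not be settled. No capitals are used, since none of the seed matches searched was found in them.
Rps27l 3′ UTR: ccttaccaacttcagttactttaccaag
Rpl22 3′ UTR: atttctttgtgtgatttttcttttcccc
The Rps27l group (chr9:66797205-66797232, plus strand) had 42 reads in WT and 21 in KO, each with as many conversion events as reads. The Rpl22 group (chr4:151706900-151706927, plus) had 22 reads in WT, beside 2 other Rpl22 groups of 18 and 17 reads in KO. Rpl13a, which in myeloid cells can leave the ribosome and repress inflammatory mRNAs, had a 3′ UTR group of 40 reads in WT and none there in KO.

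Matches to miRNA seeds were searched for 14 miRNA families, as the reverse complement of bases 2 to 8 of the miRNA, or of bases 2 to 7 followed by A, on the group's own strand. They were found in 5 of 33 WT groups (15.2%) and 5 of 27 KO groups (18.5%), against 18.1% and 15.6% of all groups in genes. The mature sequences of the families matched are given from RefSeq with the seed in capitals.
mmu-miR-27a-3p: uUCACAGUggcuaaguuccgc
mmu-miR-16-5p: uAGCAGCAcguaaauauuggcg
mmu-let-7a-5p: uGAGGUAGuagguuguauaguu
mmu-miR-29a-3p: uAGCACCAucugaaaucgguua
Matching groups follow, with the match in capitals.
Rpl10 intron, miR-27: caatcttcctACTGTGAAaactg
Rpl13a coding, miR-15/16: aaaaagcggatggtggtcccTGCTGCTctc
Rpl35a intron, let-7: ttactacCTACCTCAag
Rpl30 intron, let-7: ttaatattggataCTACCTC
Rps15a 3′ UTR, miR-29: taccctccctcatttTGGTGCTg
The Rpl10 group (chrX:71516382-71516404, plus strand) had 45 reads in WT with 24 conversion events, and 86 in KO with 86. That of Rpl13a (chr7:52381878-52381907, minus) had 26 reads in WT and 11 in KO. The Rpl35a group (chr16:33058948-33058964, plus) had 19 reads in WT and 80 in KO and no conversion in either. The Rpl30 group (chr15:34371301-34371320, minus) had 29 reads in KO, and the Rps15a group (chr7:125251463-125251485, minus) 14 in WT. Rps9 had a match to miR-17 in an unconverted 5′ UTR group of 19 reads in WT. A match is a description of the letters and not a measured site.

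Rpl3, the large-subunit protein closest to the peptidyl transferase centre, held the intron group with the most reads in WT, with 96 reads and 1 conversion event, and it had 66 reads and 0 events in KO, below the intron groups of Rpl10 and Rpl35a. The introns of Rpl3 are known to hold box C/D snoRNAs, and whether these reads come from one was not tested. The KO group (chr15:79913289-79913316, minus strand) and 2 of the 6 5′ UTR groups, chosen for their pyrimidine runs, Rpl19 (chr11:97888268-97888288, plus) and Rpl14 (chr9:120480622-120480640, plus), read as follows.
Rpl3 intron: actctgtgctgaatgtcaagttctgatt
Rpl19 5′ UTR: agctctttcctttcgctgctg
Rpl14 5′ UTR: cgggccctctctcttctcg
The Rpl19 group had 12 reads in WT and the Rpl14 group 8 in KO. Matched by sequence, the Rpl14 group runs from base -12 to base 7 of the RefSeq start window, so it begins before that start.

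Between genotypes, the groups of ribosomal protein names held 116.4 RPM (reads scaled to the total of all groups in the library) in WT and 95.9 in KO, a ratio of 0.824 (interval 0.739 to 0.918). That ratio rested on 1 name. Groups named Rpl24 had 185 reads in 5 groups in WT and 16 reads in 1 group in KO. These WT groups span 32222 bases and carry 1 transcript identifier, no group was named for the neighbouring gene Zbtb11, and RefSeq gives Zbtb11 as a synonym of Rpl24, so their gene is uncertain. Without them the ratio was 1.07, from 87.0 RPM to 93.4. Rpl24 encodes a large-subunit protein of the intersubunit bridge.

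Of the 7 names with at least 50 reads in 1 genotype, 2 were at least 2-fold higher in KO and 3 at least 2-fold lower. Over the 6137 genes with that many reads, 20.7% were higher and 18.7% lower by that measure. Rpl35a had 3.02 RPM in WT and 12.4 in KO (4.11-fold), all in the unconverted intron group. Rpl24 was at 0.0844 of its WT value, Rpl13a at 0.237 (66 and 16 reads) and Rps27l at 0.336 (61 and 21 reads), while Rpl3 was at 0.547 and Rpl10 at 1.86. None of the mRNAs measured among these names was called, with 2.71 RPKM in WT and 2.68 in KO for Rpl13a, and 36.4 and 32.9 for Rps27l.

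Most other names had few reads. Rpl4 had 19 reads in each genotype, in 2 coding groups in WT and another in KO. Rpl14 had 11 reads in WT and 23 in KO, with a coding group shared between them. Rpl7l1 had 16 and 13, Rpl5 13 and 10. Names with groups in KO only included Rpl34 (20 reads) and Rplp0 (9), and names with groups in WT only included Rps9 (19 reads), Rps20 (14 in 2 groups) and Rpl8 (13). In all, 31 names had a group in either genotype and 12 in both. Rplp1, the highest mRNA, had no group in either genotype.

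**Figure D5:**
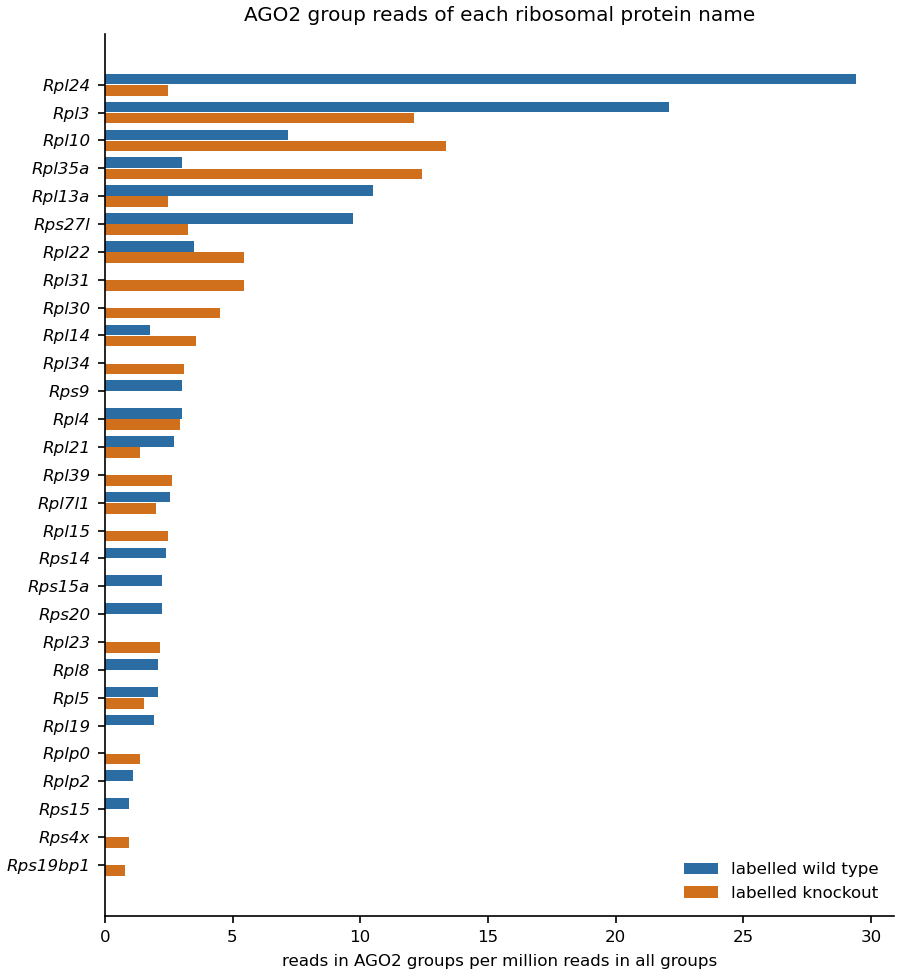
AGO2 group reads, as RPM, for 29 of the 31 ribosomal protein names with a group, in WT (blue) and KO (orange), from 1 library each and therefore without error bars. Rpl24 is the highest in WT at 29.4 and 2.48 in KO, while Rpl35a is at 3.02 in WT and 12.4 in KO.

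The comparison groups of the same pathway gave these shares. In WT, an exonic group was found for 34 of 77 mitochondrial ribosomal proteins (44.2%, interval 32.8 to 55.9%), 7 of 16 other TOP genes (43.8%, 19.8 to 70.1%), 16 of 26 biogenesis genes (61.5%, 40.6 to 79.8%) and 14 of 15 regulators (93.3%, 68.1 to 99.8%). Of the members at 1 RPKM or more it was 17 of 82 (20.7%, 12.6 to 31.1%). These lists were not matched for gene length, with which the share moved among other genes, and the part of length in their differences was not tested. The mitochondrial and cytosolic intervals did not overlap, while that of the TOP genes overlapped the members' in WT. In KO the members had 14 of 84 (16.7%, 9.42 to 26.4%), the mitochondrial genes 32 of 77 (41.6%, 30.4 to 53.4%) and the TOP genes 9 of 16 (56.2%, 29.9 to 80.2%), and neither of the latter intervals overlapped the members'.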

How the data were processed

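Per the submitters' processing notes, reads were handled with CASAVA 1.8.2 and Bowtie 0.12.7 on build mm9; how reads with several matches were treated is not given in the sources used here. The authors deposited whole-number counts and RPKM per gene for 8 mRNA libraries, and per PAR-CLIP library a table of AGO2 groups with counts of reads and conversions. Ensembl identifiers were matched to symbols (19328 of 21444). Counts were tested with edgeR 4.0.16 (TMM, filterByExpr, quasi-likelihood, R 4.3.3), leaving 14019 genes, with Benjamini-Hochberg adjustment at 0.05; DESeq2 1.42.0, limma 3.58.1 on deposited RPKM (log2, pseudocount 1), other scalings, filters, left-out libraries and a replicate block were alternatives. The scripts were tested on simulated data. Same-numbered libraries deviated together (correlations of deviations 0.745 to 0.81), so the numbers were treated as pairing; WT 3 with KO 4 (0.764) and WT 4 with KO 3 (0.832) correlated as highly, so these do not tell numbers 3 and 4 apart. Groups were overlapped with bedtools 2.31.1.

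The members, lists and tests were chosen with earlier results of these data known. Named were members that passed a test, the 10 of smallest p, the 8 highest and 8 lowest in RPKM, those of largest F or spread between numbers, those with the most AGO2 groups or reads or the largest AGO2 ratios, a set of paralogs and stalk proteins, and the 3 genes of smallest p in each list. Some members and sites that this rule names are not reported here or drawn in the figures that name genes.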

Additional observations from a re-analysis of the deposited data

Results flagged for a closer look

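In groups of 4 libraries, a value was singled out when its gap to the nearest other library passed Dixon's critical value as a part of the group's whole range, which chance does for about 1 in 20 groups. Among 100 such groups of named members, 11 were singled out. Some of these members, Rps2 and Rpsa among them, were named for a large F or spread between numbers. The count of 11 can therefore not be set against that rate. In number 2, Rpsa had 38.3 RPKM in WT 2 (others 10.3 to 13.5) and 57.3 in KO 2 (others 9.39 to 14.6), and Rps2 had 181 in WT 2 (others 67.4 to 83.3). Rpl13a had 3.66 in WT 2 (others 2.32 to 2.51) and Rps19bp1 had 17.0 in KO 2 (others 15.5 to 15.8). In number 1, Rpl23 had 395 RPKM in WT 1 (others 596 to 610), Rpl32 had 277 in KO 1 (others 408 to 426) and Rpl4 had 336 in KO 1 (others 438 to 458). Rpl36al was low in WT 2 at 24.1 RPKM (others 29.6 to 30.6) and in KO 1 at 19.9 (others 29.8 to 30.3). Rpl39l had 0.727 RPKM in WT 3 (others 0.058 to 0.076), from very few counts. The high value of Rpsa was shared by both libraries of its number.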

How the results depend on the processing

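In each of the 17 alternatives run, 0 members were called between genotypes. The replicate block gave 0 members and a median of 0.067, against 0.069 without it, and changed no call of a member. Leaving out 1 library moved the median between -0.0076 (without KO 2) and 0.14. Rpl31 and Rpl13 turned from lower to higher in KO within numbers 1 and 2 alone (0.072 and 0.11), and Rpl31 without WT 3 (0.13), with the other leave-one-out values from -0.67 to -0.30. The test of number called 48 to 73 members over its alternatives. The members' share of counts was 1.32% (WT) and 1.42% (KO) without the 100 genes of highest mean count, and 1.23% in KO with -ps symbols. Members with an AGO2 group were 5.81% (WT) and 9.30% (KO) at 20 or more reads per group, where coding groups were 9.09% in WT. The ratio of AGO2 share to mRNA share was 0.0061 and 0.008 (WT and KO) at 20 or more reads, 0.0071 and 0.0073 with conversions, 0.0065 and 0.0063 without introns, and 0.0246 and 0.0266 with mean CPM as the mRNA level. The KO to WT ratio of AGO2 reads was 0.664 with conversions, 0.625 without introns, 0.975 when scaled to the reads in exonic groups and, chosen after seeing the data, 1.07 without groups named Rpl24; the last turned its direction. With 1 AGO2 library per genotype, differences of single groups have no replicate check, also where they exceed counting error.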
